A study of Homo sapiens with 4 samples.

Results

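Skipped exons of long non-coding RNA (lncRNA) genes were examined in MDA-MB-231, an established human triple-negative breast cancer cell line, and in MDA-LM2, its highly lung-metastatic derivative. A skipped exon is an internal exon that a spliced transcript either includes or leaves out. The exons were those listed for either line that lay inside a GENCODE 29 gene of type lincRNA, antisense, processed_transcript, sense_intronic or sense_overlapping, on the same strand, and inside no protein-coding gene of that strand. This rule gave 2690 of 37641 listed exons, 7.15%, in 1198 genes. Of these exons 972 lay in lincRNA genes, 951 in antisense genes, 675 in processed transcripts, 24 in sense-overlapping genes, none in sense-intronic genes and 68 in genes of more than 1 type. Exons in more than 1 lncRNA gene numbered 146, were counted once and are named here with 1 or more of those genes.

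The parental group held 2 samples of MDA-MB-231 and the other group 2 samples of MDA-LM2. Both lines were cultured untreated in serum-supplemented medium, and total RNA was sequenced. Each line is represented by 1 table of exon values that names no replicate, so the values of a line are taken as pooled over its samples and carry no replicate error. The sources used here do not say whether the samples of a line came from separate cultures.

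Long non-coding RNAs are transcribed, capped, spliced and often polyadenylated like messenger RNAs, but have no long reading frame that constrains which exons must be joined. Some carry their function in the intron rather than the exon: the hosts of small nucleolar RNAs (snoRNAs) and of microRNAs release the small RNA from an intron or exon while the spliced remainder may be degraded or kept. Others act as spliced molecules in chromatin or cytoplasm, and several of these are known from breast and lung tumours.

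Exons called as different in inclusion between the lines, by the rule given further on, are shown first. The called 316-nt exon of OSER1-DT is described below, and its sequence was left out for its length. Sequences are from GENCODE 29 transcripts on GRCh38 (hg38), 5′ to 3′ on the strand of the gene, and each printed exon matches an annotated exon of a non-coding gene exactly. In the next 4 sequences capitals mark the first base and the last 2 bases, the positions next to the splice sites. Exons of DLEU1 (chr13:50083142-50083194, plus strand, 53 nt) and JPX (chrX:73998768-73998844, plus strand, 77 nt) were included more in MDA-LM2. Exons of LINC00630 (chrX:102816992-102817082, plus strand, 91 nt) and DTX2P1-UPK3BP1-PMS2P11 (chr7:76995455-76995595, plus strand, 141 nt) were included less.
DLEU1: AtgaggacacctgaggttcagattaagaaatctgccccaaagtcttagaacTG
JPX: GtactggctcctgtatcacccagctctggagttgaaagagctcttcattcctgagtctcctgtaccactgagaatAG
LINC00630: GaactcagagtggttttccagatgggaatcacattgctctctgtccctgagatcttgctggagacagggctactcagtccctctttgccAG
DTX2P1-UPK3BP1-PMS2P11: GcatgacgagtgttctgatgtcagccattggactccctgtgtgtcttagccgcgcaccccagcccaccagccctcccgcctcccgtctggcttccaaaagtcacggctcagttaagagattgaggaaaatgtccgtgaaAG

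A further exon was listed in a long and a short version that share their 3′ end, in the clone-named gene AC092821.3 (chr12:9655125-9655303, plus strand, 179 nt). The capitals mark the 83-nt short version, chr12:9655221-9655303, which was scored as a separate exon.
AC092821.3: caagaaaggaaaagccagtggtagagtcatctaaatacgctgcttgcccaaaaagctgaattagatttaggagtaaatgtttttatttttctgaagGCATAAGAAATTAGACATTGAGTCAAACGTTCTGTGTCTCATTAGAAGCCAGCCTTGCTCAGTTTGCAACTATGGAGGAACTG

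The last pair shows how alike some lncRNA exons are. CYTOR (chr2:87480223-87480423, plus strand) and MIR4435-2HG (chr2:111469787-111469987, minus strand) each have a 201-nt exon, and the capitals mark the 3 bases that differ: T6C, G52A and T98C, counted from the 5′ end with the CYTOR base first.
CYTOR: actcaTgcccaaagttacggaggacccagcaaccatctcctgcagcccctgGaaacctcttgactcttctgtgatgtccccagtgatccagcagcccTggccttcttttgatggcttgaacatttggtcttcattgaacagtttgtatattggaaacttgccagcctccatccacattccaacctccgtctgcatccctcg
MIR4435-2HG: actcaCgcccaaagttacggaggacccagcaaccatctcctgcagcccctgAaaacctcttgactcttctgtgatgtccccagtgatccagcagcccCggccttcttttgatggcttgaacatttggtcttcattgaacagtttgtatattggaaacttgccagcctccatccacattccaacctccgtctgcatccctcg

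An event is an exon with a given pair of flanking exons, and its reads were deposited in 4 classes: inclusion reads, exclusion reads, reads that either isoform could give and reads that neither could. Summed over all listed events, 17366605 reads in MDA-LM2 and 21716937 in the parental line fit at least 1 isoform. A read that serves several events is counted in each of them, so these sums exceed the number of separate reads. As a check of the cell type, 3 of 6 mesenchymal markers had a listed event, with summed event reads of 2369 per 1000000 reads that fit an isoform (RPM) in MDA-LM2 and 2692 RPM in parental cells. CD44 alone gave 2203 and 2511 RPM of these, and SPARC stood at 0.0576 and 0.0460. Of 8 epithelial markers 6 were listed, summing to 12.7 and 5.80 RPM, with FOXA1 at 11.0 and 2.03 and GATA3 at 0.749 and 2.62. Leukocyte markers summed to 0.518 and 0.322, no endothelial marker had a listed event, and of 3 lung epithelial markers NKX2-1 alone was listed, at 1.90 RPM in MDA-LM2 and 0 in parental cells.

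The exons of lncRNA genes were thinly covered. In MDA-LM2 95.03% of the reads of their events fit neither isoform, as did 95.2% in parental cells, against 72.4% and 73.7% for exons inside protein-coding genes. The median event had 2 inclusion plus exclusion reads in MDA-LM2 and 1 in parental cells, against 26 and 27 in protein-coding genes. No such read at all was present in 34.2% of lncRNA events in MDA-LM2 and 35.4% in parental cells, against 9.47% and 11.2%. The deposited interval of the inclusion level was correspondingly wide, with a median width of 0.68 and 0.71 for lncRNA events and 0.22 in both lines for protein-coding ones. At an event of median depth the deposited level therefore leaves most of the range from 0 to 1 inside its interval.

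**Figure D1:**
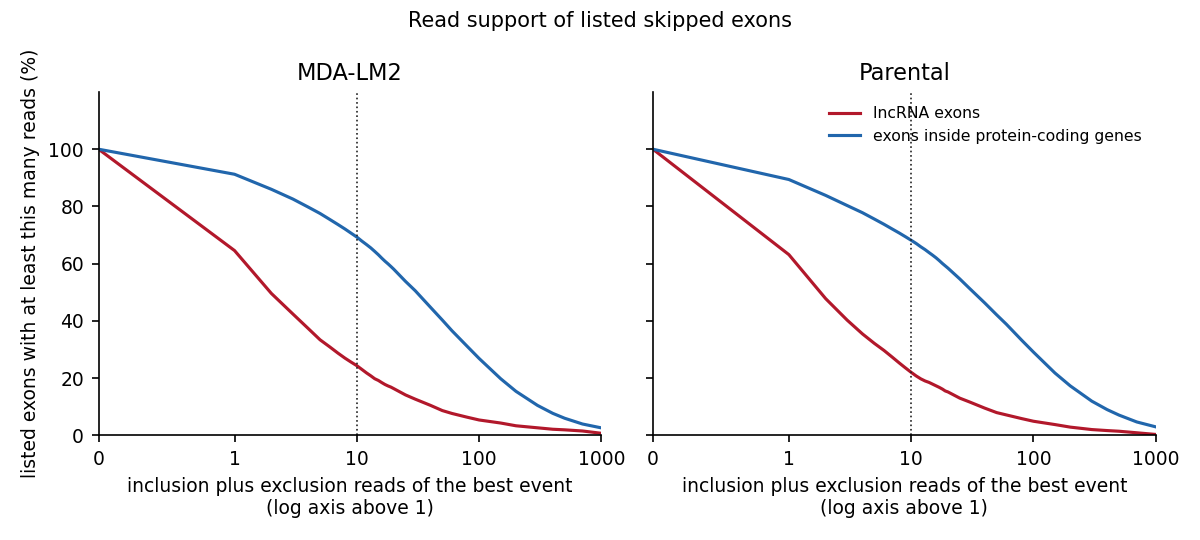
Share of listed exons (vertical axis, percent) whose best event has at least the number of inclusion plus exclusion reads on the horizontal axis, for MDA-LM2 and the parental line, with the dotted line at 10 reads. At 10 reads the lncRNA curve (red) stands at 24.3% in MDA-LM2 and 22.0% in parental cells, and the protein-coding curve (blue) at 69.3% and 68.2%.

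More lncRNA exons were listed in the parental table alone, 714 of 2690 or 26.5%, than in the MDA-LM2 table alone, 111 or 4.13%. Among exons inside protein-coding genes the shares were 8.54% and 1.57%. No listed event had under 20 reads over all classes, and the parental table holds more reads, 89285093 against 68691146 summed over events and classes. The part of this depth gap in the unequal listing was not tested.

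Inclusion was compared where an exon had 10 or more informative reads (inclusion plus exclusion) in each line, with both kinds seen at least once, and each exon was represented by its best covered event. This left 264 lncRNA exons, 9.81% of those listed, in 139 genes, against 40.1% of exons inside protein-coding genes. This share differed by class of gene name: 20 of 35 listed exons of SNHG genes (57.1%) passed, 17 of 82 of microRNA host genes named as such (20.7%), 74 of 753 of antisense genes named -AS (9.83%), 35 of 500 of LINC genes (7.0%) and 44 of 850 of genes with clone-based names (5.18%). The median lncRNA exon that passed had 43 informative reads in MDA-LM2 and 53 in parental cells. These 264 exons are the better covered members and do not stand for all 2690.

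By the deposited level, most of the lncRNA exons that passed were at intermediate inclusion. Each had both inclusion and exclusion reads, as the entry rule requires. The median level was 0.605 in MDA-LM2 and 0.555 in parental cells. A level from 0.1 to 0.9 was found in 186 of 264 exons in MDA-LM2 (70.5%, exact Clopper-Pearson 95% interval 64.6% to 75.9%) and 187 in parental cells (70.8%, 64.9% to 76.2%). In protein-coding genes that share was 43.7% and 42.2%. Depth moved with this result: with at least 50 informative reads in each line, the share was 55.0% (45.2% to 64.6%) and 56.0% (46.1% to 65.5%) over 109 lncRNA exons, against 32.5% and 32.3% in protein-coding genes. A read-based level, which sets the inclusion reads divided by 2 against the exclusion reads and takes no account of reads that fit both isoforms, gave 50% (43.8% to 56.2%) and 47.3% (41.2% to 53.6%) for the lncRNA exons and 32.8% and 32.5% for the protein-coding ones. The intervals cover the counting of exons only, and exons of 1 gene are not independent.

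Few of these exons differed between the lines by the call rule. The median difference, MDA-LM2 minus parental in the authors' deposited table, was 0.01, and its median size was 0.05, against 0.02 in protein-coding genes. A difference under 0.05 was found in 129 of 264 exons, 48.9% against 66.6% in protein-coding genes. One of at least 0.2 was found in 24, 9.09% against 4.45%, and the lncRNA exons had fewer informative reads, with medians of 43 and 53 against 75 and 94. The call rule was a difference of at least 0.2 together with a Bayes factor, which weighs a change in level against no change, of 10 or more in the authors' deposited table. By that rule 5 lncRNA exons were higher in MDA-LM2, against a background of 0.921% of all 14109 exons compared, and 2 were lower, against 0.326%. Together the 7 made up 2.65% of the lncRNA exons (exact Clopper-Pearson 95% interval 1.07% to 5.39%), against 1.25% of all exons compared, and this background lies inside the interval. The 7 exons lay at 6 loci: 3 among 78 exons of lincRNA genes, 4 among 98 of processed transcripts, none among 62 of antisense genes and none among 26 in genes of more than 1 type. At a background of 1.25% a count of 0 among 62 is not set apart from it.

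**Figure D2:**
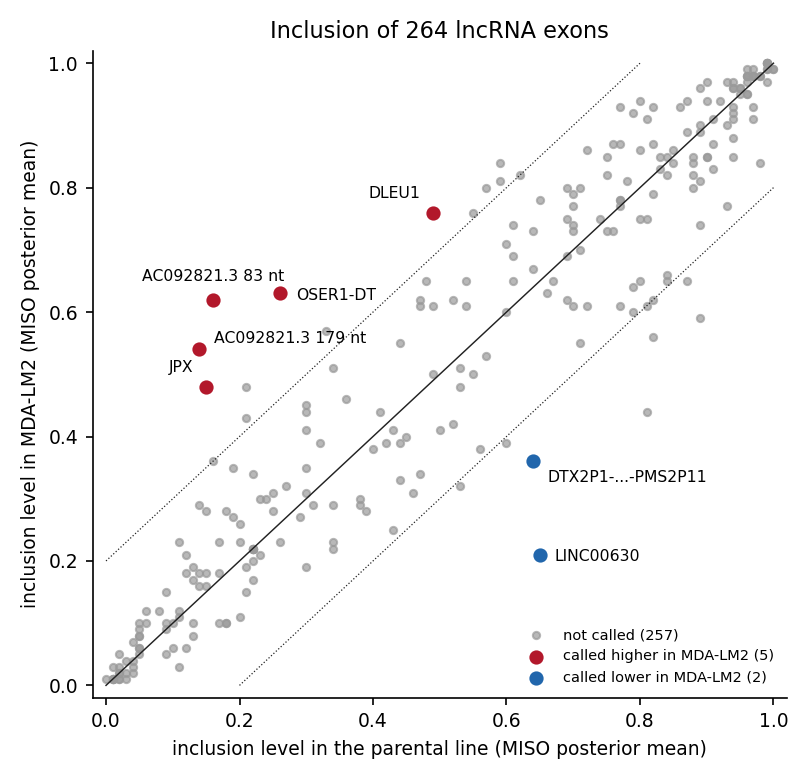
Inclusion level of each of the 264 lncRNA exons in the parental line (horizontal axis) and in MDA-LM2 (vertical axis), both as MISO posterior means from 0 to 1, with dotted lines at a difference of 0.2. The 5 red points are called higher and the 2 blue points lower, and 17 grey points reach a difference of 0.2 without a Bayes factor of 10.

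The inclusion and exclusion reads themselves were also compared by a two-sided Fisher's exact test, adjusted by Benjamini-Hochberg over all 14109 exons. Being a test of 2 pooled libraries, it says nothing of the spread between samples of a line. With a read-based difference of at least 0.2 as well, it called 1 lncRNA exon higher, the DLEU1 exon, against 0.163% of all exons, and none lower, against 0.0851%. By Fisher's exact test alone 6 lncRNA exons had an adjusted p of at most 0.05, 2.27% of them against 1.1% of all exons.

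DLEU1 is a spliced lncRNA of the chromosome 13 region that is often deleted in chronic lymphocytic leukaemia. Its 53-nt exon had 122 inclusion and 34 exclusion reads in MDA-LM2 and 92 and 84 in parental cells. The inclusion level was 0.76 (deposited interval 0.68 to 0.82) in MDA-LM2 and 0.49 (0.42 to 0.57) in parental cells, and the intervals do not overlap. The authors' deposited table gave a Bayes factor of 40092889.58, and the two-sided Fisher's exact test an adjusted p of 0.000202. The read-based level was 0.64 against 0.35. This exon was also listed with 2 more distant downstream exons, and in those events no exclusion read was seen in either line, with 51 inclusion reads in MDA-LM2 and 38 in parental cells. There the level was 0.96 in MDA-LM2 against 0.89 and 0.93 in parental cells, the intervals overlapped, and the authors' deposited table gave Bayes factors of 0.18 and 0.12, so the change seen in the best covered event was not called in these. Reads of the gene's best covered event, which is this one, were 55.2 RPM in MDA-LM2 and 51.8 in parental cells, a ratio of 1.07 (exact conditional 95% interval 0.977 to 1.16).

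JPX is a lncRNA of the X-inactivation centre. Its 77-nt exon had a level of 0.48 (0.31 to 0.65) in MDA-LM2 and 0.15 (0.09 to 0.24) in parental cells. The authors' deposited table gave a Bayes factor of 3552.8. It had 31 inclusion and 2 exclusion reads in MDA-LM2 and 17 and 2 in parental cells, so inclusion reads prevailed in both lines. The read-based level was 0.89 against 0.81, the smallest read-based change among the 7 called exons. For this exon the two-sided Fisher's exact test gave an unadjusted p of 0.617. Reads that fit both isoforms were far more numerous, 269 in MDA-LM2 and 502 in parental cells, and they enter the MISO level but not the read-based one. A second event of this exon, with a more distant upstream exon, gave 0.23 (0.13 to 0.35) against 0.04 (0.01 to 0.07), from 15 and 4 inclusion reads and no exclusion read. The 1142-nt exon that follows in JPX had 598 inclusion and 15 exclusion reads in MDA-LM2 and 982 and 4 in parental cells. There the two-sided Fisher's exact test gave an adjusted p of 0.0424, while the level was 0.50 against 0.49.

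The 2 versions of the AC092821.3 exon moved together and rest on the same skipping reads. The 83-nt version had a level of 0.62 (0.33 to 0.89) against 0.16 (0.07 to 0.29), from 9 inclusion and 3 exclusion reads in MDA-LM2 and 4 and 14 in parental cells. The 179-nt version had 0.54 (0.29 to 0.85) against 0.14 (0.06 to 0.26), from 9 and 3 reads against 6 and 14. The authors' deposited table gave Bayes factors of 31.92 and 16.71. Neither version had an adjusted p under 0.05 in the Fisher's exact test, with values of 0.287 and 0.513. The same gene had 2 versions of a further exon, of 82 and 130 nt, at 0.69 against 0.61 and 0.76 against 0.55, and neither was called. All 4 tested exons of the gene were thus at a higher level in MDA-LM2.

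OSER1-DT is transcribed divergently from the start of OSER1, a gene that responds to oxidative stress. Its exon at chr20:44217367-44217682 (316 nt) had a level of 0.63 (0.47 to 0.80) in MDA-LM2 and 0.26 (0.14 to 0.40) in parental cells. The authors' deposited table gave a Bayes factor of 18.06. Inclusion reads numbered 33 in MDA-LM2 and 14 in parental cells, and exclusion reads 7 in both. The read-based level was 0.70 against 0.50, and the two-sided Fisher's exact test gave an unadjusted p of 0.206. With a nearer downstream exon the level was 0.89 (0.70 to 1) against 0.56 (0.29 to 0.86), with overlapping intervals and no exclusion read.

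The exon of LINC00630, an intergenic RNA of the X chromosome, was the larger of the 2 decreases. Its level was 0.21 (0.07 to 0.40) in MDA-LM2 and 0.65 (0.47 to 0.84) in parental cells, from 5 inclusion and 5 exclusion reads against 25 and 3. The authors' deposited table gave a Bayes factor of 320.07, and the Fisher's exact test an adjusted p of 0.427. Of the gene's 5 tested exons the other 4 differed by at most 0.04, with levels from 0.39 to 0.74 in MDA-LM2 and from 0.41 to 0.70 in parental cells. With another upstream exon, the called exon had a level of 0.11 (0.04 to 0.23) against 0.23 (0.13 to 0.36), and these intervals overlap.

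The second decrease cannot be assigned to the non-coding gene alone. The exon of DTX2P1-UPK3BP1-PMS2P11, a transcript that runs through several pseudogenes, had a level of 0.36 (0.27 to 0.46) against 0.64 (0.53 to 0.74), from 54 inclusion and 28 exclusion reads in MDA-LM2 and 118 and 22 in parental cells. Its adjusted p in the two-sided Fisher's exact test was 0.150. An exon of the protein-coding gene DTX2, a ubiquitin ligase of the Deltex family, has the same 141 bases with 0 mismatches at chr7:76497337-76497477. The DTX2 exon had 71 inclusion and 28 exclusion reads against 151 and 22, so its exclusion reads equal those of the pseudogene exon in each line, as do the reads that fit both isoforms, 41 and 33. Its level was 0.43 (0.34 to 0.54) against 0.71 (0.62 to 0.79). The difference in the authors' deposited table was -0.28 for both exons. Reads of the 2 genes cannot be told apart in these files.

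**Figure D3:**
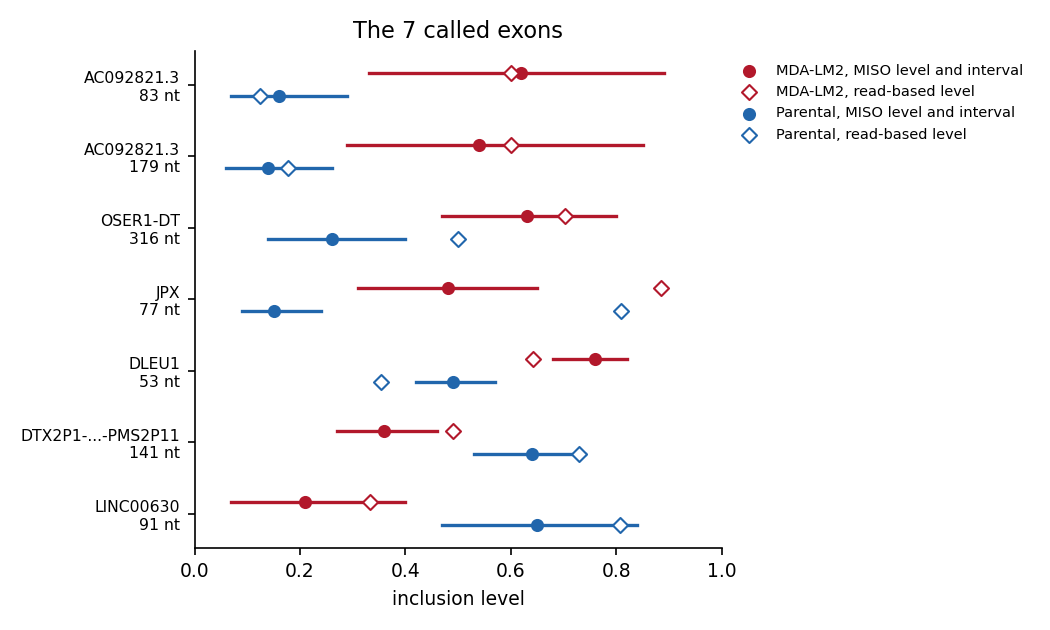
The 7 called lncRNA exons, with the inclusion level on the horizontal axis from 0 to 1: filled circles and bars are the deposited level and its interval, open diamonds the level from inclusion and exclusion reads alone, MDA-LM2 in red and parental in blue. In 6 of the 7 exons the read-based levels differ by at least 0.1 in the direction of the deposited levels, and in JPX both diamonds lie above 0.8.

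Just outside the call rule stood 17 exons that differed by at least 0.2 but had Bayes factors up to 2.68 in the authors' deposited table, and 8 exons whose Bayes factor passed 10 with a smaller difference. The exon of POLR2J4, a pseudogene of an RNA polymerase II subunit, had a level of 0.61 (0.56 to 0.65) in MDA-LM2 and 0.77 (0.72 to 0.82) in parental cells. It had 515 inclusion and 103 exclusion reads against 618 and 54, and an adjusted p of 0.000556 by the two-sided Fisher's exact test. Of its 31-base words 89.2% also occur in a gene elsewhere, the closest being the protein-coding POLR2J3. In LINC00511, an RNA linked to breast and lung tumours, the 286-nt exon was at 0.57 (0.42 to 0.75) against 0.33 (0.22 to 0.46), and the authors' deposited table gave a Bayes factor of 2.44.

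Hosts of snoRNAs had exons at both extremes of inclusion and between them, and none was called. Of 43 listed exons of the snoRNA host list 24 passed the read minimum, with a median level of 0.905 in MDA-LM2 and 0.92 in parental cells and a median difference of 0.01. SNHG5, the host of U50 snoRNAs, had 4 overlapping exon versions at 0.99 or 1 in MDA-LM2 and from 0.97 to 0.99 in parental cells. ZFAS1, which hosts C/D box snoRNAs, held 3 exons at very different levels. Its 86-nt exon was at 0.98 in both lines, from 2639 inclusion and 30 exclusion reads in MDA-LM2 and 1063 and 9 in parental cells. The 62-nt exon was at 0.86 (0.84 to 0.88) against 0.80 (0.76 to 0.83). The 67-nt exon was almost always skipped, at 0.01 in both lines, with 920 exclusion reads in MDA-LM2 and 445 in parental cells.

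Levels also differed between exons within other snoRNA hosts. In SNHG6 the 112-nt exon was at 0.75 (0.71 to 0.79) in MDA-LM2 and 0.81 (0.77 to 0.85) in parental cells, from 635 inclusion and 88 exclusion reads against 639 and 61, and its 69-nt exon at 1 against 0.99. In SNHG16 the 227-nt exon was at 0.18 against 0.17 and the 99-nt exon at 0.73 against 0.70. LRRC75A-AS1, typed as a processed transcript, also hosts snoRNAs but was not on the list. It had an 88-nt exon at 1 against 0.99. Its 176-nt exon was at 0.31 (0.29 to 0.34) against 0.25 (0.23 to 0.27). The authors' deposited table gave it a Bayes factor of 473.62, and the difference was too small for a call.

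Exons of microRNA hosts mostly had low deposited levels. Of 115 listed exons 37 passed, 26 of them in CYTOR or MIR4435-2HG, with a median level of 0.23 in MDA-LM2 and 0.20 in parental cells, and none was called. DLEU2, the host of miR-15a and miR-16-1, had a 115-nt exon at 0.29 (0.22 to 0.37) against 0.38 (0.30 to 0.46). MIR22HG had an 83-nt exon at 0.23 (0.12 to 0.38) against 0.34 (0.22 to 0.50). It had 12 inclusion reads and no exclusion read in MDA-LM2, and 21 and 1 in parental cells. Its read-based level was 1 against 0.91, so inclusion reads prevailed in both lines. FTX, a further gene of the X-inactivation centre, had a 206-nt exon at 0.38 (0.26 to 0.53) against 0.56 (0.43 to 0.71), and these intervals overlap. In MIR100HG, the host of miR-100 and miR-125b-1, a 191-nt exon was at 0.91 (0.85 to 0.97) against 0.81 (0.74 to 0.88). LINC-PINT, a target of p53, had its best covered exon at 0.93 (0.85 to 0.98) against 0.97 (0.92 to 0.99).

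Of 69 well-studied lncRNAs on a fixed list, 41 had a listed exon and 24 an exon past the read minimum. Among these 24 best covered exons the difference was under 0.1 in 18, the median difference was 0.01, and the DLEU1 exon was the only one called. Over all 84 tested exons of the list 2 were called, both higher, those of DLEU1 and JPX, against 0.921% of all exons compared. Always or nearly always included were EPB41L4A-AS1 (73 nt, 0.99 against 1), SNHG12 (136 nt, 0.98 against 0.96) and the 935-nt exon of LUCAT1 (0.91 against 0.97). Almost always skipped were CRNDE (87 nt, 0.03 against 0.01) and THUMPD3-AS1 (74 nt, 0.04 in both lines). PVT1, the neighbour of MYC, had 7 tested exons, from 0.05 to 0.53 in MDA-LM2 and from 0.09 to 0.57 in parental cells. Its 301-nt exon, with 106 inclusion and 34 exclusion reads in MDA-LM2 and 112 and 31 in parental cells, was at 0.41 (0.33 to 0.49) against 0.43 (0.35 to 0.52).

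The remaining exons with the most reads lay near full inclusion, apart from those of CYTOR and MIR4435-2HG. The 1242-nt exon of LINC01123 was at 0.99 in both lines, from 958 inclusion and 1 exclusion reads in MDA-LM2 and 565 and 1 in parental cells. Of its 31-base words 38.8% also occur in LINC01106, whose 1241-nt exon was also at 0.99 in both lines. The LINC01106 exon had similar reads, 982 inclusion and 1 exclusion in MDA-LM2 and 586 and 0 in parental cells. How far the 2 exons draw on the same reads was not tested. The 177-nt exon of PXN-AS1 was at 0.99 against 1. Of the well-studied genes, SNHG1 had a 43-nt exon at 0.96 against 0.94 and TTN-AS1 a 1193-nt exon at 0.90 against 0.89. NUTM2A-AS1 had a 205-nt exon at 0.41 (0.32 to 0.52) against 0.50 (0.38 to 0.63), LINC00963 a 743-nt exon at 0.82 (0.55 to 0.98) against 0.62 (0.36 to 0.88), and LINC01116 a 376-nt exon at 0.10 (0.05 to 0.16) against 0.05 (0.01 to 0.10). These 3 pairs of intervals overlap.

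CYTOR and MIR4435-2HG are a duplicated pair of lncRNA genes on chromosome 2, and CYTOR is named for its part in cytoskeletal regulation. Their exons formed 8 pairs of equal length with an identity from 98.1% to 100%. In 6 of the pairs the levels of the 2 genes differed by at most 0.09 within a line. The 201-nt exons shown above were at 0.27 (0.25 to 0.28) in MDA-LM2 and 0.19 (0.18 to 0.21) in parental cells in CYTOR, and at 0.18 (0.16 to 0.20) and 0.12 (0.11 to 0.14) in MIR4435-2HG. The CYTOR exon had 663 inclusion and 804 exclusion reads against 461 and 837, with a two-sided Fisher's exact test adjusted p of 7.82e-05, and that of MIR4435-2HG 310 and 590 against 211 and 623, adjusted p 0.00568 by the same Fisher's exact test. Both exons were higher in MDA-LM2 by less than the 0.2 a call needs. How far reads of these near-identical exons can be told apart was not tested. Each lies inside the 385-nt exon of its gene and was scored against the same exclusion reads. For the 385-nt exons the Fisher's exact test gave an adjusted p of 0.427 in CYTOR and 0.375 in MIR4435-2HG. The best covered exons were the 385-nt ones, at 0.23 against 0.20 in CYTOR and 0.28 against 0.25 in the exon shared by MIR4435-2HG and AC017002.6, and the 2015-nt exon of MIR4435-2HG, at 0.32 (0.30 to 0.33) against 0.27 (0.26 to 0.29). The 2015-nt exon had 3306 inclusion and 1 exclusion reads in MDA-LM2 and 2841 and 1 in parental cells. Its read-based level was thus 0.999 in both lines, far above the deposited level.

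In the other 2 pairs identical sequences had very different levels. A 138-nt exon with 0 mismatches was at 0.26 (0.23 to 0.28) in MDA-LM2 and 0.20 (0.18 to 0.22) in parental cells in CYTOR, and at 0.98 (0.97 to 1) and 0.97 (0.95 to 0.99) in MIR4435-2HG. Its inclusion reads were close, 520 in CYTOR and 535 in MIR4435-2HG in MDA-LM2 and 396 and 406 in parental cells. The exclusion reads were not: 804 and 837 in CYTOR against 3 and 4 in MIR4435-2HG. In CYTOR 7 tested exons were scored against 1 skipping junction with the same 804 and 837 reads, and 4 exons of MIR4435-2HG against 1 with 590 and 623. The level of such an exon therefore depends on which flanking exons define its event. The 89-nt pair was at 0.21 and 0.23 in CYTOR and at 0.73 and 0.64 in MIR4435-2HG, from at most 2 exclusion reads in any line.

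**Figure D4:**
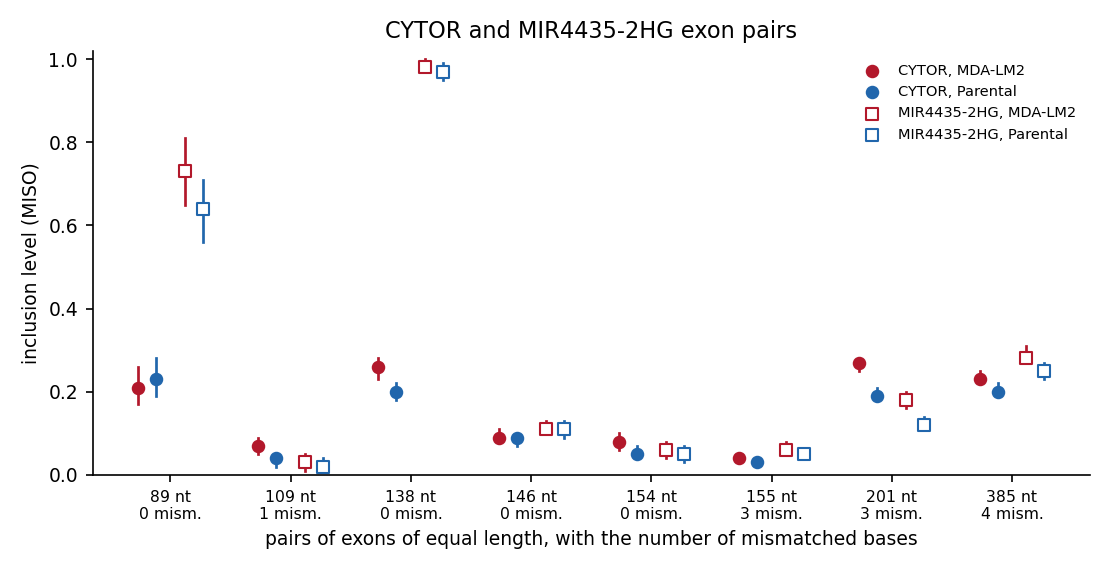
Inclusion levels (vertical axis, 0 to 1, with deposited intervals as bars) of 8 pairs of exons of equal length in CYTOR (filled circles) and MIR4435-2HG (open squares), with MDA-LM2 in red and parental in blue and the exon length and number of mismatched bases on the horizontal axis. The 138-nt exons, identical in sequence, stand at 0.26 and 0.20 in CYTOR and at 0.98 and 0.97 in MIR4435-2HG.

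The choice of flanking exons also set the result of another MIR4435-2HG exon, chr2:111239802-111239996. With the upstream exon at 111344061 and the downstream exon at 111233628 its level was 0.86 (0.81 to 0.92) against 0.60 (0.53 to 0.69), from 634 inclusion and 13 exclusion reads against 347 and 5. The authors' deposited table gave this event a difference of 0.26 and a Bayes factor of 158913298.9, which meets the call rule. Taking for each exon the event with the largest Bayes factor would therefore give 6 higher calls in place of 5, this exon being the sixth. The read-based level of this event was 0.96 against 0.97. With the nearer upstream exon at 111248148, which gave the best covered event, it was at 0.98 (0.96 to 0.99) against 0.98 (0.95 to 1), from 654 and 2 reads against 347 and 0. The other 2 events of that exon were at 0.97 or above in both lines.

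Skipping junctions were shared widely among the tested lncRNA exons. The 264 exons were scored on 205 junctions, of which 39 served more than 1 exon and 98 exons in all, and 67 exons shared an end with another tested exon. Exclusion reads were few: 135 of the 264 exons, 51.1%, had under 10 exclusion reads over both lines, against 40.9% in protein-coding genes. A call at 1 of several exons on a junction is thus not independent of the others.

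Sequence shared with other genes was more frequent among the lncRNA exons that could be measured. At least 50% of the 31-base words of an exon also occurred in a gene elsewhere for 56 of 252 tested lncRNA exons with a sequence, 22.2% (exact Clopper-Pearson 95% interval 17.2% to 27.9%), against 8.94% of all listed lncRNA exons and 5.67% of tested protein-coding ones. Among the 30 pairs of listed lncRNA exons with identical sequence, 7 had identical reads in every class that fits an isoform. These 7 were pairs of the clone-named chromosome 21 genes CU633967.1, CU634019.1 and CU633904.1. Their 254-nt exon, for example, had 76 inclusion and 11 exclusion reads in MDA-LM2 and 46 and 2 in parental cells, each count given for all 3 copies. Such copies are 1 measurement listed several times.

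In their other features the listed lncRNA exons resembled those of protein-coding genes with some differences. Their median length was 125 nt against 114 nt, and a length divisible by 3, which keeps a reading frame when an exon is skipped, was found in 34.3% (exact Clopper-Pearson 95% interval 32.5% to 36.1%) against 41.4%. Flanking introns were longer, with medians of 3972 nt upstream and 3559 nt downstream against 2393 and 2291. GC content was 47.4% against 49.4%. Exons of 30 nt or less made up 0.929% against 2.89%. Of the annotated exons 56.2% (54.3% to 58.1%) ended in AG and 43.3% (41.3% to 45.2%) began with G, against 57.8% and 44.1% in protein-coding genes.

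Overlap with genes of the other strand differed by a larger factor than the features above. A protein-coding gene lay on the other strand of 24.9% of lncRNA exons against 4.30%, and a protein-coding exon on the other strand of 6.62% against 0.999%. The sources used here do not say whether reads were counted by strand, so reads of such antisense partners cannot be told apart. Among the 264 tested exons 15 overlapped an exon of the other strand, including 4 of TTN-AS1 and that of PXN-AS1, and none of the 7 called exons did.

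The amount of RNA from each gene was described by event reads: the inclusion, exclusion and both-isoform reads of its best covered event listed in both lines, in RPM. A label here is a gene or a set of overlapping genes. Of 803 lncRNA labels 41 were at least 2-fold higher in MDA-LM2 with an exact conditional 95% interval that excludes 1, 5.11% against 3.1% of all 10808 genes. A further 99 were at least 2-fold lower, 12.3% against 8.36% of all genes. The median log2 ratio was -0.22 for lncRNA genes and -0.14 for all genes. After the ratios were centred on the median gene, 54 of the 803 lncRNA labels were higher and 80 lower, against 456 and 713 of all 10808 genes. Coverage was low: the median gene had 14 event reads in MDA-LM2 and 21 in parental cells, and 369 genes had under 20 in both. With at least 50 event reads in the line with more, 19 of 301 lncRNA genes were higher, 6.31% against 2.69% of all such genes, and 41 lower, 13.6% against 6.74%. The interval covers counting error only, with no replicate check, and fewer cells with a transcript and less of it per cell cannot be told apart. Of the 140 called labels 22 had at least 50% of the words of their exon in a gene elsewhere, and 7 overlapped an exon of the other strand.

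By event reads, hosts of snoRNAs were mostly above parental levels. Of 14 such genes 3 were called higher and 1 lower, against 3.1% and 8.36% of all genes. The ratio was above 1 in 11 (13 after centring on the median gene), as it was in 4401 of all 10808 genes and 323 of the 803 lncRNA labels, and the list's median log2 ratio was 0.54. ZFAS1 had 3596 event reads in MDA-LM2 and 1640 in parental cells, 207 against 75.5 RPM, a ratio of 2.74 (2.59 to 2.91). SNHG17 stood at 10.4 against 4.83 RPM, 2.14-fold higher (1.68 to 2.75), and SNHG15 at 9.39 against 4.56, 2.06-fold higher (1.59 to 2.67). Below the 2-fold line but with intervals above 1 were SNHG5 at a ratio of 1.94 (1.81 to 2.08), GAS5, which accumulates in growth-arrested cells, at 1.81 (1.64 to 2.01), SNHG12 at 1.77 (1.52 to 2.06) and SNHG1 at 1.54 (1.46 to 1.64). Smaller ratios with intervals above 1 were those of SNHG6 at 1.36 (1.24 to 1.498), SNHG16 at 1.20 (1.08 to 1.33) and EPB41L4A-AS1 at 1.09 (1.01 to 1.18). SNHG27 was lower, with 3 against 23 event reads and a ratio of 0.163 (0.0314 to 0.540). Reads that fit neither isoform are left out of these ratios. They were more numerous in parental cells for SNHG6 (6140 against 9497), SNHG8 (9367 against 20538), SNHG11, SNHG21, SNHG27 and EPB41L4A-AS1. They were more numerous in MDA-LM2 for the other hosts, as in ZFAS1 (19786 against 13051) and SNHG17 (2581 against 2446). Ratios with all 4 read classes are not given for this list.

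Among 20 labels of microRNA hosts 3 were called higher and 2 lower, against 3.1% and 8.36% of all genes, with a median log2 ratio of 0.34. MIR99AHG, the host of miR-99a and let-7c, had 70 event reads in MDA-LM2 and 17 in parental cells, a ratio of 5.15 (2.998 to 9.33). MIR4500HG had 49 and 10, a ratio of 6.13 (3.07 to 13.6). The imprinted H19, host of miR-675, had 26 and 10, a ratio of 3.25 (1.52 to 7.56). MIR193BHG was lower, with 4 and 20 event reads and a ratio of 0.250 (0.0622 to 0.747), as was the label PRR34-AS1,MIRLET7BHG with 46 and 119 and a ratio of 0.483 (0.336 to 0.685). Reads that fit neither isoform, left out of these ratios, were 46 and 79 for MIR193BHG and 164 and 373 for the PRR34-AS1 label. For MIR99AHG they were 1734 and 483, for MIR4500HG 3360 and 827 and for H19 13 and 12. Ratios with all 4 read classes are not given for these hosts. MIR100HG, with 116 against 180 RPM, had a ratio of 0.644 (0.610 to 0.679) and did not reach the 2-fold line.

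**Figure D5:**
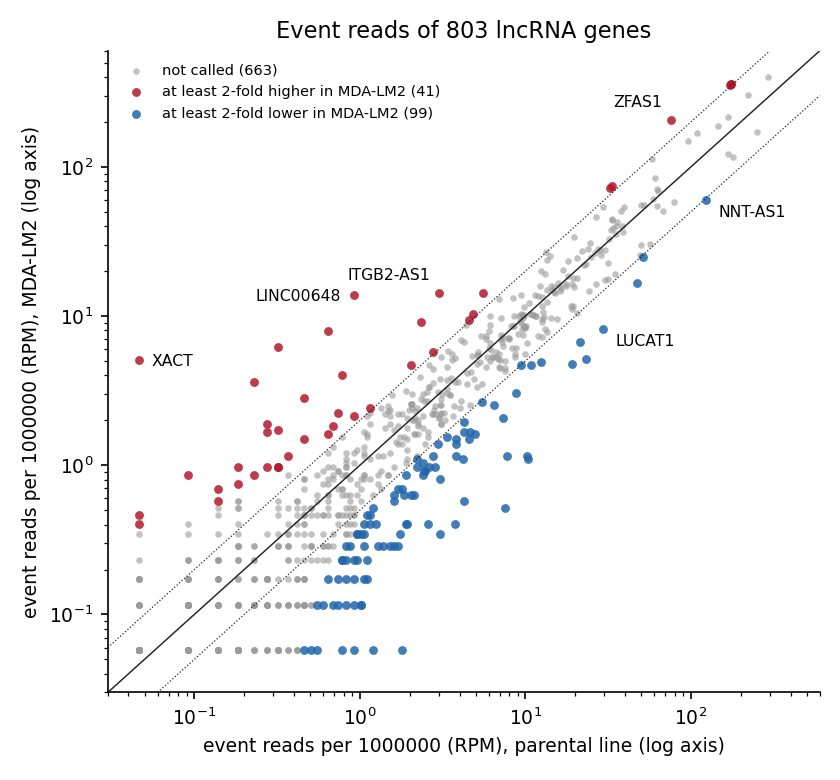
Event reads in RPM of 803 lncRNA gene labels in the parental line (horizontal log axis) and MDA-LM2 (vertical log axis), with the line of equality and dotted lines at 2-fold. Red points are the 41 called higher, blue points the 99 called lower, and the columns and rows of points at the lower left are genes with a handful of reads.

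The largest increase by ratio was that of XACT, an RNA of the active X chromosome in pluripotent cells, with 88 event reads in MDA-LM2 and 1 in parental cells, a ratio of 110 (19.2 to 4395). Of the 31-base words of its exon 73.6% also occur in a gene elsewhere. CASC9, a lncRNA linked to oesophageal and other cancers, had 108 and 7, a ratio of 19.3 (9.05 to 49.1). LINC00648 had 242 and 20, a ratio of 15.1 (9.58 to 25.2). LINC00632, the locus of a circular RNA that binds miR-7, had 138 and 14, a ratio of 12.3 (7.10 to 23.1). LINC02251 had 63 and 5, a ratio of 15.8 (6.41 to 50.2). With all 4 read classes, which adds the reads that fit neither isoform, the log2 ratio of XACT was 1.26 and not 6.78. That of CASC9 was then 3.05 and not 4.27, and that of LINC00632 2.26 and not 3.62. The other 5 of the 10 largest increases had 7 to 49 reads in MDA-LM2 and 1 to 10 in parental cells.

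Among the 10 largest decreases AC025569.1, which lies opposite the phosphatase gene PTPRB, had 9 event reads in MDA-LM2 and 164 in parental cells, a ratio of 0.0686 (0.0308 to 0.133). APCDD1L-DT had 7 and 82, a ratio of 0.107 (0.0416 to 0.230), and USP2-AS1 6 and 66, a ratio of 0.114 (0.0403 to 0.261). OR2A1-AS1 had 19 and 226, a ratio of 0.105 (0.0621 to 0.168), and its exon matches AC004889.1 over 100% of its words. The remaining decreases of the 10 had 1 read in MDA-LM2 and 12 to 39 in parental cells, apart from AC074386.1, which overlaps OR2A1-AS1 and had 20 against 221. With all 4 read classes the log2 ratio of AC025569.1 was -2.45 and not -3.87, that of APCDD1L-DT -1.45 and not -3.23, and that of USP2-AS1 -2.50 and not -3.14. LINC00837 at -0.48 and AL357078.1 at -0.59 then fell short of 2-fold.

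Of 36 labels of well-studied lncRNAs 3 were called higher, those of ZFAS1, SNHG15 and H19, and 4 lower, against 3.1% and 8.36% of all genes. LUCAT1, a stress-responsive RNA named for lung cancer, had 142 event reads in MDA-LM2 and 637 in parental cells, 8.18 against 29.3 RPM, a ratio of 0.279 (0.231 to 0.335). ZEB1-AS1, a neighbour of the gene of the mesenchymal transcription factor ZEB1, had 16 and 53, a ratio of 0.378 (0.201 to 0.671), with 79.6% of its words in a gene elsewhere. TP53TG1 had 6 and 21, a ratio of 0.357 (0.118 to 0.915), and CASC2 3 and 20, a ratio of 0.188 (0.0357 to 0.632). Reads that fit neither isoform, left out of these ratios, numbered 105 and 475 for LUCAT1 and 217 and 496 for ZEB1-AS1. They numbered 20 and 37 for TP53TG1 and 754 and 1650 for CASC2. Except in LUCAT1, those reads were less unequal between the lines than the event reads. Ratios with all 4 read classes are not given for this list. DLEU1, DLEU2, PVT1, LINC00511, MIAT and CRNDE were within 1.5-fold of equality. Among the genes of the called exons JPX stood at 50.6 against 68.2 RPM, a ratio of 0.741 (0.681 to 0.806).

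Some further labels had many event reads, and those given here were picked after their values were seen. NNT-AS1, which starts next to the mitochondrial transhydrogenase gene NNT, had 1036 event reads in MDA-LM2 and 2695 in parental cells, a ratio of 0.481 (0.447 to 0.517). LINC00472 had 117 and 467, a ratio of 0.313 (0.254 to 0.384), and LINC01278 83 and 415, a ratio of 0.250 (0.195 to 0.317). In the other direction ITGB2-AS1, which lies opposite the leukocyte integrin gene ITGB2, had 248 and 65, a ratio of 4.77 (3.62 to 6.37). PLCE1-AS1, opposite the phospholipase gene PLCE1, had 159 and 51, a ratio of 3.90 (2.83 to 5.46). The copied chromosome 21 genes CU633967.1, CU633906.1 and CU633904.1 had ratios of 2.05, 2.05 and 2.04 from largely the same reads.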

How the data were processed

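Total RNA was sequenced from 2 samples of each line (ScriptSeq v2, per the labels' protocols) and aligned with STAR 2.7 to hg38, per the submitters' processing notes. Per the file headers, the deposited tables are MISO summaries of skipped exons: inclusion level and its interval as a fraction from 0 to 1, and read counts in 4 classes. The authors' deposited table comparing the lines holds a difference, a score (LM2 minus parental), and a Bayes factor, a ratio. The sources used here give neither the MISO settings and interval level nor how samples were combined.

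Computed here (Python 3.11.15, pandas 2.3.3, scipy 1.17.1): 1 event per exon with most inclusion plus exclusion reads, at least 10 in each line; calls at a Bayes factor of 10 and a difference of 0.2; Fisher's exact tests with Benjamini-Hochberg adjustment; event reads per 1000000 with exact conditional 95% intervals. The rule for names took all called exons, the 12 with most reads (1 per gene), the best covered exon of each listed gene, the 10 largest gene ratios each way and the listed genes, some of which are given only by count or range; further exons of these genes, host genes and chromosome 21 copies were named after their values were seen. The exon test was tested on simulated data. Members and lists were chosen with earlier results of these data known. Soft-masked repeats and splice-site dinucleotides were not used here. Intervals of ratios cover counting error only.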

Additional observations from a re-analysis of the deposited data

How the results depend on the processing

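No paired analysis was possible because each line is 1 table that names no replicate. For the same reason no sample could be left out. The 5 higher and 2 lower calls became 3 higher at a Bayes factor of 20 (the 179-nt AC092821.3 and the OSER1-DT exons were lost), and 1 lower at a difference of 0.3, where DLEU1 (0.27) and DTX2P1-UPK3BP1-PMS2P11 (-0.28) were lost. With 20 reads in each line 2 higher and 1 lower remained in number, with no read minimum there were 8 and 4, and with lincRNA genes alone 2 and 1. With exons whose words are mostly unique, a choice made after seeing the data, 1 was lower. The read test called 1 lower at a difference of 0.1, against 0. Of gene calls, 170 were lower with all 4 read classes, 70 higher at 1.5-fold, and 19 higher and 41 lower with at least 50 reads. Apart from that of 50 reads, the counts at changed settings are given without the share over all exons or genes. Among exons past the read minimum the medians were 148.5 nt in length, 2354 nt and 2766.5 nt for the upstream and downstream introns and 49.0% GC. The shares were 14.4% opposite a protein-coding gene, 5.68% opposite a protein-coding exon, 22.2% with shared sequence, 52.0% ending in AG, 6.82% of 500 nt or more and 0.379% of 30 nt or less. The cause of these shifts was not tested, apart from those that follow from fewer exons tested. Depth limits the comparison to 264 of 2690 exons.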

Other observations

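Of the 2426 lncRNA exons that were not compared, 5 met the Bayes factor and difference of a call in an event below the read minimum. The matching share over all exons is not given here, so the count is not set against a background. In TMEM161B-AS1 a 77-nt exon was at 0.65 (0.41 to 0.88) in MDA-LM2 and 0.18 (0.06 to 0.37) in parental cells, from 15 inclusion and 2 exclusion reads against 3 and 3. In PHACTR2-AS1 a 211-nt exon was at 0.82 (0.47 to 0.98) against 0.29 (0.09 to 0.60), from 14 and 2 inclusion reads with no exclusion read. AC087741.1 was also higher, at 0.77 (0.43 to 1) against 0.16 (0.01 to 0.46) from 3 and 2 informative reads. Lower were LINC01833, at 0.08 (0 to 0.29) against 0.58 (0.19 to 0.97), and AC092683.1, at 0.26 (0.09 to 0.54) against 0.70 (0.47 to 0.92). The AC092683.1 exon has an identical copy in AC159540.2, at 0.26 against 0.74.

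Some lncRNA genes had listed events in 1 line only. IGFL2-AS1 had 84 event reads, LINC00996 62 and UCA1, a lncRNA named for urothelial cancer, 39 in parental cells, and none of the 3 was listed in MDA-LM2. In the other direction the most were 18 event reads of LINC01518 and 17 of TNFRSF14-AS1 in MDA-LM2. No listed event had under 20 reads over all classes, and the sources used here do not give the rule for listing. An unlisted gene is therefore not shown to be absent.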
